A study of Mus musculus with 2 samples.

Results

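Feedback inhibitors of the ERK pathway were followed in mouse germ cells with and without FGF9. The group comprised 10 genes of 32285 in the feature list of each library: the phosphatases Dusp4, Dusp5 and Dusp6, the Sprouty genes Spry1, Spry2 and Spry4, the Spred genes Spred1, Spred2 and Spred3, and Il17rd. They were chosen by name, with earlier results of these data known, and all 10 had a row in both libraries. The cells were THY-1+ germ cells from male C57 LacZ pups, a culture enriched for spermatogonial stem cells and kept on STO feeders, a mouse fibroblast line. Their growth medium had held 20 ng/ml of GDNF, 150 ng/ml of its co-receptor GFRA1, and FGF2 at 1 ng/ml. Control cells then received 0 ng/ml FGF and FGF9-treated cells 20 ng/ml FGF9 for 48 h. The study describes a switch of both cultures to medium with FGF9 or with BSA. A figure legend describes the control as without growth factors. The labels do not say whether GDNF and FGF2 were still present in either culture. The contrast may thus be FGF9 against no factor or FGF9 on top of GDNF and FGF2. Each treatment was 1 droplet single-cell library.

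ERK is the last kinase of a relay that runs from growth factor receptors through RAS, RAF and MEK. Cells that receive a strong ERK signal switch on genes whose products damp the same relay, and this negative feedback limits how high and how long ERK stays active. The DUSP proteins remove phosphate from ERK itself. Sprouty and SPRED proteins act further up, between the receptor and RAF, and SPRED proteins bring the RAS inhibitor neurofibromin to the membrane. IL17RD, also called SEF, is a membrane protein that restrains FGF signalling. Because these genes are switched on by the pathway they inhibit, their RNA is widely read as a record of recent ERK activity. In spermatogonia GDNF and FGF both feed the pathway, GDNF through the receptor RET and its partner GFRA1.

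Counts of unique molecular identifiers (UMIs, 1 per captured RNA molecule) were used. The libraries held 5312 control and 5959 FGF9-treated barcodes. Barcodes with at least 2000 genes and at most 20% mitochondrial UMIs were kept, and those with 40 or more UMIs of the fibroblast genes Vim and S100a6 were set apart as feeder cells. This left 4157 control and 4537 FGF9-treated germ cells, with 67689739 and 67068085 UMIs and medians of 14824 and 13067 UMIs per cell, and 31 and 63 feeder cells. The gap between the classes was wide, as only 1 germ cell in each library had 20 to 39 fibroblast UMIs. Levels are given as CPM, UMIs of a gene for each 1000000 UMIs of its class. The summed level of 10 germ cell markers was 4419 and 3719 CPM in control and FGF9-treated germ cells. That of 10 fibroblast markers was 136 and 193 CPM in germ cells against 13838 and 18843 CPM in feeder cells. In germ cells the summed Sertoli markers were at 7.80 and 10.4 CPM, the Leydig markers at 4.37 and 5.08 CPM and the macrophage markers at 1.03 and 2.31 CPM. The defining Leydig genes Cyp17a1, Hsd3b1 and Insl3 were at 0, as was Adgre1 of the macrophage list. Markers of dying cells summed to 649 and 536 CPM. The libraries shared 11 barcodes. Since each treatment was a single library, the treatments could not be tested against each other, and all 95% intervals below cover counting error only, not variation between cultures.

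All 10 feedback inhibitors had a higher level in FGF9-treated than in control germ cells. Summed over the 10 genes, the level was 90.5 CPM (88.3 to 92.8) in control and 262 CPM (259 to 266) in FGF9-treated germ cells. The log2 ratio of FGF9-treated over control CPM was at least 1 for 8 of the 10, a size that 5.05% of the 17240 measured genes reached (at least 20 UMIs over both libraries). It was at most -1 for 0 of the 10, a size seen for 4.58% of measured genes. The lower bound of the counting interval was above 0 for all 10, as it was for 26.6% of measured genes. The median log2 ratio of the 10 was 1.64, and that of all measured genes was -0.03. Dusp5 and Spry1 were the members below 1.

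The plot of levels shows which inhibitors germ cells used most. In both libraries Spred1 was the most abundant of the 10. In control cells it was followed by Il17rd and Dusp5, whose intervals overlapped. Spry1, Dusp6 and Spred2 came next and also overlapped, then Spry2 alone, and Spry4, Dusp4 and Spred3 lay together at under 0.5 CPM. With FGF9 the order of the 10 was Spred1, Dusp6, Il17rd, Dusp5, Spred2, Spry4, Spry1, Spry2, Spred3 and Dusp4, with no overlap between neighbours. Dusp6 thus moved up to stand next to Spred1, and its share of all UMIs of the 10 genes was 6.35% in control and 19.9% with FGF9. Each molecule gives 1 tag near its 3' end, so CPM was not divided by gene length. How well the tag is captured can differ between genes, and the order of genes rests on that.

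**Figure D1:**
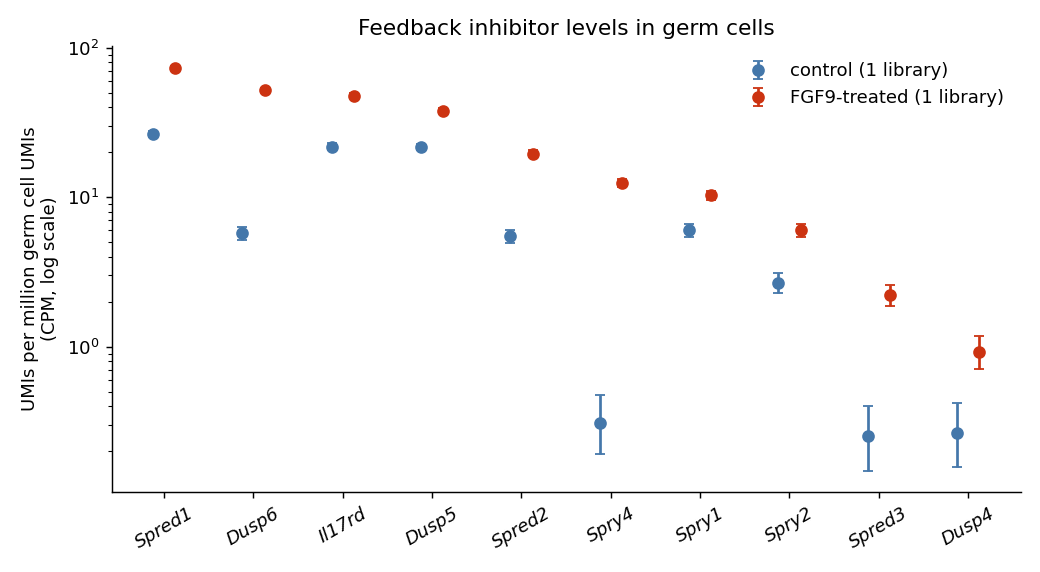
Level of each feedback inhibitor in germ cells (CPM, log axis), with control in blue, FGF9-treated in red and bars for exact Poisson 95% counting intervals of 1 library each. All 10 red points lie above their blue points, with the widest gap for Spry4 (0.310 against 12.5 CPM) and the narrowest for Spry1 (6.01 against 10.3 CPM).

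The phosphatases differed among themselves. Dusp6, the cytoplasmic phosphatase with a preference for ERK (ENSMUSG00000019960, chromosome 10, 99263231 to 99267489, plus strand, mm10), had 389 UMIs in control and 3499 in FGF9-treated germ cells, or 5.75 CPM (5.19 to 6.35) and 52.2 CPM (50.5 to 53.9). The level was 9.08-fold higher with FGF9, a log2 ratio of 3.18 (3.03 to 3.34) that ranked 37 among 17240 measured genes. Dusp5, a nuclear phosphatase of ERK (ENSMUSG00000034765, chromosome 19, 53529109 to 53542431, plus strand), had 21.7 CPM (20.6 to 22.8) and 37.9 CPM (36.4 to 39.4). It was thus the more abundant of the pair in control cells and the less abundant with FGF9, and its log2 ratio was 0.80 (0.71 to 0.90). Its position overlaps AC137853.2 on the other strand. Dusp4, a nuclear phosphatase that also acts on other MAP kinases (ENSMUSG00000031530, chromosome 8, 34807297 to 34819894, plus strand), was close to absent, with 18 and 62 UMIs over all germ cells, or 0.266 and 0.924 CPM. Its log2 ratio was 1.80 (1.02 to 2.64). Feeder cells held Dusp4 at 14.4 and 15.6 CPM. Feeder markers stood in germ cells at 0.985% and 1.02% of their feeder level, and the same share of feeder Dusp4 would amount to 53.5% of the germ cell value in control and 17.2% with FGF9. In control, 1 feeder cell held 7 of the 10 Dusp4 UMIs, and without that cell the feeder level was 4.46 CPM and this share 16.5%. For the other 9 genes, with all feeder cells, it was 11.3% or less.

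The promoters of Dusp5 and Dusp6 are shown because these phosphatases had such different ratios. The windows run from 250 bases before to 50 bases after the gene start, from RefSeq on GRCm38.p6, at chr19:53528895-53529194 for Dusp5 and chr10:99262981-99263280 for Dusp6, both on the plus strand. Capitals mark every match to 4 motifs, searched on both strands: CCGGAA (ETS factors), TGANTCA (AP-1), TGACG (the core of a CRE) and the CArG box bound by serum response factor.
Dusp5: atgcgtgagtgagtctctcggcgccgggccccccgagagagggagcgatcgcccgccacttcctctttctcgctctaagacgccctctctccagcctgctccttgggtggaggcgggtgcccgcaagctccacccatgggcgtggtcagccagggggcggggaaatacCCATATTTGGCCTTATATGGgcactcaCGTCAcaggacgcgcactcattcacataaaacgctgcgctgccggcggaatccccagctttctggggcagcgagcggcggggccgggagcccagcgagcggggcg
Dusp6: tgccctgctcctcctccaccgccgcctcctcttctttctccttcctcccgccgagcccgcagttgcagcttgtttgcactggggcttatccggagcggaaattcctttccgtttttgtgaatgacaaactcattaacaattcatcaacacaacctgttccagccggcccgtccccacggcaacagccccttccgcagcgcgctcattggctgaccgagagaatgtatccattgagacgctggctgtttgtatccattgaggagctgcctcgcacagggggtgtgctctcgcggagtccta
Dusp5 held 2 adjoining CArG boxes, at -82 and -72 from the gene start, and a CRE core at -55, while Dusp6 held none of the 4 motifs in this window. A CArG box was found in 1.63% of 32851 promoters of the same length. Of the 10 inhibitors 8 matched an entry in the promoter table, without Dusp4 and Spry4. CCGGAA was in 1 of these 8 (Spry2) against 14.9% of all promoters. AP-1 was in 0 of 8 against 7.81%, and the CRE core in 2 of 8 (Dusp5 and Spred2) against 20.8%. Other forms of ETS site were not searched, so their absence cannot be read from these windows. No motif was thus shared by more than 2 of the 8 windows. The motifs were chosen with the sequences known, a match is not a bound site, and elements outside the window were not examined.

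The SPRED genes, whose products hold RAS in check at the membrane, gave the most feedback RNA in these cells. Spred1 (ENSMUSG00000027351, chromosome 2, 117121374 to 117182279, plus strand) had 1785 UMIs in control and 4909 in FGF9-treated germ cells, or 26.4 CPM (25.2 to 27.6) and 73.2 CPM (71.2 to 75.3), a log2 ratio of 1.47 (1.39 to 1.55). It alone made up 29.1% of the inhibitors' UMIs in control and 27.9% with FGF9. Spred2 (ENSMUSG00000045671, chromosome 11, 19924375 to 20024026, plus strand) had 5.47 CPM (4.92 to 6.05) and 19.5 CPM (18.4 to 20.6), a log2 ratio of 1.83 with a lower bound of 1.67. Spred2 was thus less abundant than Spred1 in both libraries and had the larger ratio. Spred3 (ENSMUSG00000037239, chromosome 7, 29158829 to 29170411, minus strand) was rare, with 17 and 148 UMIs, or 0.251 CPM (0.146 to 0.402) and 2.21 CPM (1.87 to 2.59). Its log2 ratio of 3.14 (2.41 to 3.95) was close to that of Dusp6 but rested on few molecules. Spred3 overlaps Ggn, a germ cell gene on the other strand.

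The Sprouty genes were the least abundant family in control cells and held the largest ratio of the 10. Spry4 (ENSMUSG00000024427, chromosome 18, 38586247 to 38601415, minus strand) had 21 UMIs in 4157 control germ cells and 836 in 4537 FGF9-treated cells, or 0.310 CPM (0.192 to 0.474) and 12.5 CPM (11.6 to 13.3). The level was 40.2-fold higher with FGF9, and the log2 ratio of 5.33 (4.71 to 6.03) ranked 4 among all measured genes. Spry4 was thus near the limit of detection without FGF9 and among the mid-level inhibitors with it. Spry2 (ENSMUSG00000022114, chromosome 14, 105891947 to 105896819, minus strand) had 2.67 CPM (2.30 to 3.09) and 6.01 CPM (5.44 to 6.63), a log2 ratio of 1.17 (0.91 to 1.43). Spry1 (ENSMUSG00000037211, chromosome 3, 37639947 to 37644598, plus strand) had 6.01 CPM (5.44 to 6.63) and 10.3 CPM (9.53 to 11.1), a log2 ratio of 0.77 (0.60 to 0.96) that was the smallest of the 10. Without FGF9 Spry1 was the leading Sprouty gene, and with it Spry4 was. The fourth Sprouty gene, Spry3, had 1 UMI in control and 0 with FGF9. Spry1 and Spry4 overlap the annotated genes Gm42922, and Gm27369 and Gm27804, on the other strand.

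Il17rd (ENSMUSG00000040717, chromosome 14, 27038941 to 27107286, plus strand) had 1474 UMIs in control and 3210 in FGF9-treated germ cells, or 21.8 CPM (20.7 to 22.9) and 47.9 CPM (46.2 to 49.5). The log2 ratio was 1.14 (1.05 to 1.23), a 2.20-fold higher level. Like Dusp5 and Spred1, it was already plentiful in the control culture.

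The other genes of the pathway were compared in the same way, step by step. Of 16 measured RAS-ERK kinases and scaffolds 0 had a log2 ratio of at least 1 in either direction. Their median was -0.01, and their ratios ran from -0.34 for Map2k2, which encodes MEK2, to 0.42 for Rps6ka3, an ERK-activated kinase. Rps6ka1 stood at 0.26 and Rras2 at -0.28. Among 18 adaptors and RAS regulators 1 was higher (Rasgrp2, a RAS family exchange factor, at 1.33) and 1 lower (Gab2, a docking protein, at -1.15), with a median of 0.06. The exchange factor Sos2 stood at 0.83 and Gab1 at -0.60.

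Receptors moved in both directions. Of 16, the GDNF receptor genes Ret (1.58) and Gfra1 (1.83) were higher by at least 1 and Kit, the receptor of differentiating spermatogonia, was lower (-2.14), with a median of -0.13. Met stood at -0.88. ERK target factors and early genes were the list closest to the feedback inhibitors, with 9 of 16 at 1 or more, 0 at -1 or less and a median of 1.21. The factors Etv4 (4.45) and Etv5 (4.02) and the early genes Egr3 (2.98) and Ier3 (1.83) led it.

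Inhibitors outside the 10 genes had medians below 0. Of 17 other measured DUSP genes 0 were higher by 1 and 1 was lower, Dusp8, a phosphatase of JNK and p38 kinases, at -1.61. The median was -0.25, Dusp7, which like Dusp6 acts on ERK, had the highest ratio at 0.85, and Dusp12 and Dusp16 stood at -0.71 and -0.65. Of 19 further receptor and MAPK inhibitors 0 were higher by 1 and 1 was lower, the receptor-type phosphatase gene Ptpre at -1.75. Their median was -0.21. Flrt1 stood at 0.97, the heparan sulphate sulphatase gene Sulf2 at -0.83 and Trib3 at -0.81. No difference between the lists was tested.

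**Figure D2:**
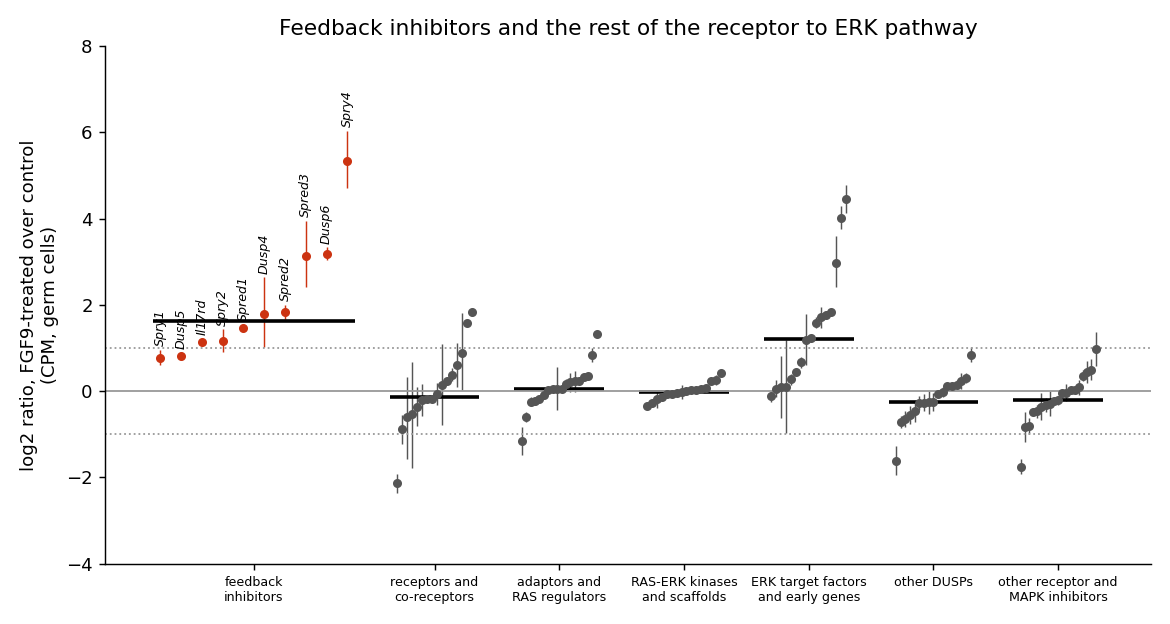
Log2 ratio of FGF9-treated over control CPM in germ cells for the feedback inhibitors (red) and 6 lists of pathway genes (grey), with 95% counting intervals, thick lines at each list's median and dotted lines at -1 and 1. The inhibitors and the ERK target genes have medians of 1.64 and 1.21, and the other 5 lists have medians between -0.25 and 0.06.

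The share of cells in which a gene was seen was compared at an equal depth, after every cell had been thinned at random to 5000 UMIs (4141 control and 4515 FGF9-treated germ cells, with 16 and 22 shallower cells left out). Spred1 was found in 12.2% (11.2 to 13.3) of germ cells in control and in 29.7% (28.3 to 31.0) with FGF9. Dusp6 was found in 2.87% (2.39 to 3.43) and 21.8% (20.6 to 23.1). The shares for Il17rd were 10.1% and 21.3%, and those for Dusp5 10.0% and 17.9%. With FGF9 these were the inhibitors most often seen. Spred2 was found in 2.61% and 9.39% of cells, Spry1 in 2.90% and 5.40% and Spry2 in 1.52% and 3.03%. Spry4 was found in 3 of 4141 cells in control (0.0724%) and in 244 of 4515 with FGF9 (5.40%). Spred3 was found in 0.145% and 1.04% and Dusp4 in 0.169% and 0.377% of cells. Without thinning, Spred1 was seen in 32.2% and 60.1% and Dusp6 in 7.63% and 46.4% of germ cells, so the shares are set largely by depth.

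Without thinning, feeder cells held UMIs of all 10 inhibitors, though in control Spry4 and Spred3 had only 2 UMIs each. At 5000 UMIs feeder cells showed Spred1 in 22.6% of 31 control and 31.7% of 63 FGF9-treated cells. Spry2, which was in few germ cells, was in 3.23% (0.08 to 16.7) of control and 14.3% (6.75 to 25.4) of FGF9-treated feeder cells. At 3000 UMIs per cell its shares were 9.68% and 9.52%, so no difference in share is read from them. Spry1, Spry4 and Spred3 were each in 0 of 31 control feeder cells after thinning to 5000 UMIs, and 3 counts in 31 cells would be 9.68%. Without thinning they were in 7, 2 and 1 of the 31. With FGF9 Spry4 was in 3.17% of feeder cells thinned to 5000 UMIs.

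**Figure D3:**
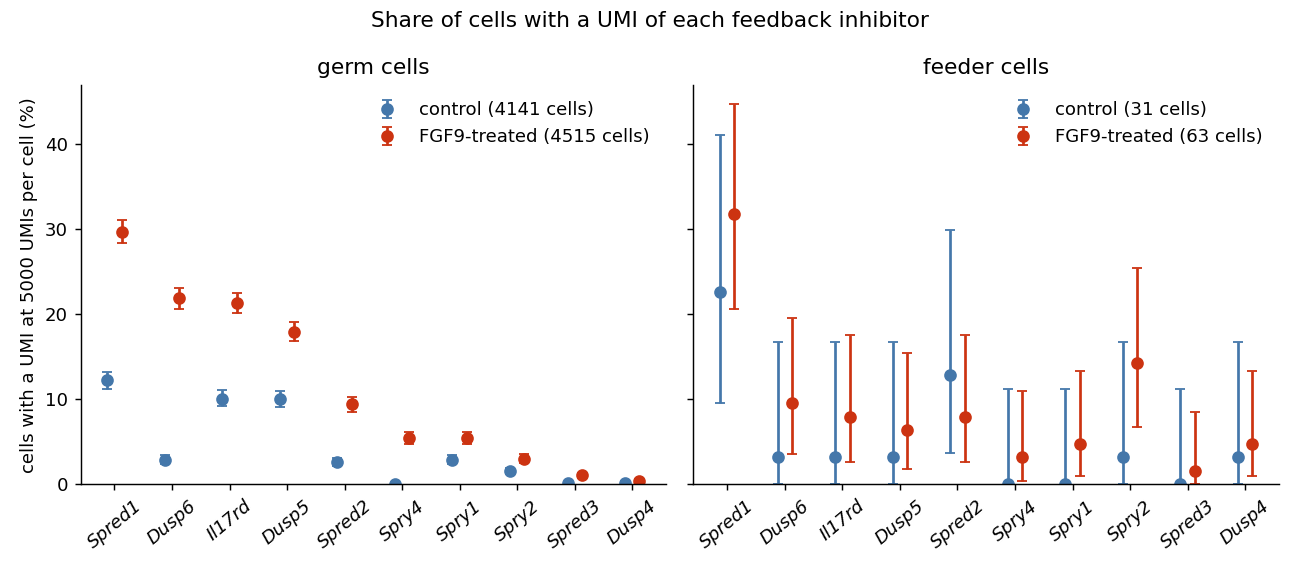
Share of cells with at least 1 UMI of each feedback inhibitor after thinning to 5000 UMIs per cell, in germ cells (left) and feeder cells (right), with exact binomial 95% intervals. In germ cells all 10 shares are higher with FGF9, up to 29.7% for Spred1, while the feeder intervals are wide because 31 and 63 cells were measured.

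In feeder cells, 3 of the 10 ratios were at least 1 and 3 had an interval above 0. Of the 8 inhibitors with at least 20 UMIs over both feeder classes, 2 were at least 1 and 3 had an interval above 0, against 4.69% and 8.39% of the 9046 genes with that many. Dusp6 was at 4.33 CPM in control (3 UMIs) and 39.2 CPM with FGF9 (73 UMIs), a log2 ratio of 3.18 (1.57 to 5.49). Spry2 was at 14.4 and 32.2 CPM, with a ratio of 1.16 (0.18 to 2.29), and Spred1 at 40.5 and 76.2 CPM, with a ratio of 0.91 (0.32 to 1.55). Spry4 was at 2.89 and 3.22 CPM, from 2 and 6 UMIs. The germ cell marker list stood in feeder cells at 19.4% of its germ cell level in control and 6.23% with FGF9, and that share of germ cell Dusp6 would be 8.30% of its feeder level with FGF9. For Spry4 it would be 24.1%, for Il17rd 30.9% and for Dusp5 27.5%. Dusp5 went the other way in feeder cells, from 30.3 to 8.59 CPM, a log2 ratio of -1.82 (-2.86 to -0.81), but a single control cell held 15 of its 21 UMIs. With the top cell of each library left out, 6 and 8 UMIs remained, and the ratio of -1.04 (-2.75 to 0.77) had an interval that spanned 0.

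How many of the inhibitors a germ cell showed was counted at the same depth. None of the 10 was seen in 64.7% of germ cells in control and 28.3% with FGF9, and 3 or more were seen in 0.797% and 9.61%. A germ cell held on average 0.458 UMIs of the 10 genes in control and 1.32 with FGF9. In unthinned germ cells the share with none was 29.3% in control and 6.72% with FGF9.

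**Figure D4:**
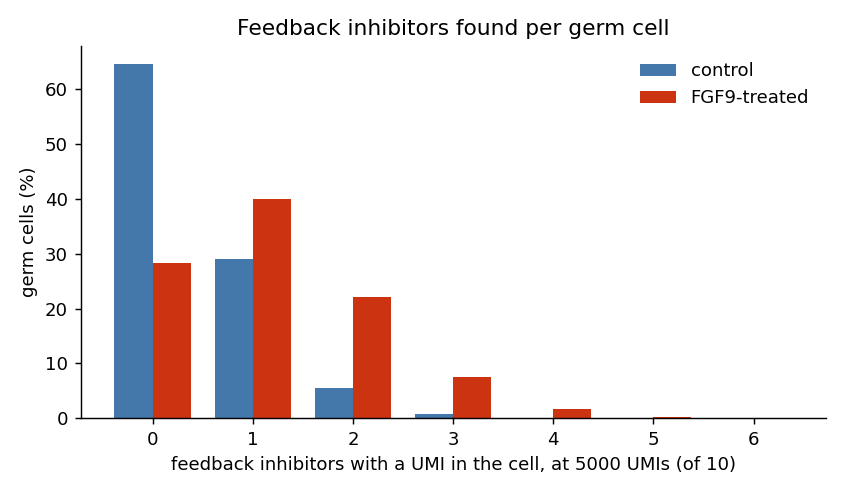
Share of germ cells (%) by how many of the 10 feedback inhibitors had a UMI at 5000 UMIs per cell, control in blue and FGF9-treated in red. In control most cells (64.7%) show none, and with FGF9 the commonest class shows 1 (1807 of 4515 cells).

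The spread of the inhibitors over cells was measured within the FGF9-treated library. The variance of UMIs over cells divided by the mean, which is 1 for counts scattered at random, lay at 1.15 for Dusp6, 1.03 for Spred1, 1.04 for Il17rd and 1.06 for Spry4. Of the 45 pairs of inhibitors, 24 had at least 20 cells in which both would be seen from the product of their shares. The cells with both were 0.824 to 1.44 times that product, with a median of 1.07, and 19 of the 24 pairs were above 1. Pearson's r over 4515 cells ran from -0.02 to 0.04 over the pairs. These counts are sparse (1186 UMIs of Dusp6 over 4515 cells) and share the depth of 1 library. At such low counts the variance over the mean stays near 1 and r near 0 even where cells differ in level. An even spread over cells thus cannot be read from these values. No gene reached the r of 0.2 set for naming genes of like pattern, with Hnrnpu for Spred1 the highest at 0.10.

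Several inhibitors differed more between Gfra1+Ret+ and unmarked cells in the control culture than with FGF9. States were set by UMIs of marker genes in thinned cells: Gfra1 and Ret together, which mark the stem cell end of the culture, Sox3 without Neurog3 and Neurog3, which mark progenitors, and Kit and Stra8, which mark the step into differentiation. States may overlap, and no inhibitor was used to set them. The 86 Gfra1+Ret+ control cells held Dusp6 at 25.3 CPM (17.4 to 35.6), from 33 UMIs in 19 cells. The 2012 control cells with none of the markers held it at 6.54 CPM (5.68 to 7.49), and the 733 Neurog3+ cells at 4.62 CPM (3.48 to 6.01). Stra8+ cells held 4 Dusp6 UMIs in 128 cells, or 1.82 CPM (0.50 to 4.67). Dusp6 in the control culture was thus highest in the Gfra1+Ret+ cells. The Neurog3+, Kit+ and Stra8+ intervals overlapped, and with a gate of 2 UMIs in unthinned cells the Stra8+ cells were at 4.74 CPM and the Kit+ cells at 4.14 CPM. With FGF9, every state held Dusp6 at 49.1 to 66.7 CPM.

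Other inhibitors were also higher in Gfra1+Ret+ than in unmarked control cells. In Gfra1+Ret+ control cells Spred1 was at 50.6 CPM (39.2 to 64.4), Il17rd at 41.4 CPM (31.1 to 54.1), Dusp5 at 39.9 CPM (29.8 to 52.3) and Spred2 at 15.3 CPM (9.37 to 23.7). In control cells with none of the markers they were at 28.6, 22.6, 22.8 and 6.51 CPM. Over the 10 genes, 7 (Dusp4, Dusp5, Dusp6, Spred1, Spred2, Spred3 and Il17rd) had a counting interval above 0 for Gfra1+Ret+ against unmarked control cells. Among the 7 inhibitors with at least 20 UMIs over both states it was above 0 for 5, against 8.28% of 14299 genes with that many. The log2 difference was 1.95 (1.38 to 2.49) for Dusp6, 1.24 (0.50 to 1.90) for Spred2 and 0.83 (0.44 to 1.19) for Spred1. Within the FGF9-treated library the same contrast, of 501 against 3084 cells, was 0.39 (0.24 to 0.53) for Dusp6, 0.23 (-0.02 to 0.48) for Spred2 and 0.22 (0.09 to 0.35) for Spred1. With FGF9 the interval was above 0 for 4 of the 10 (Dusp6, Spry4, Spred1 and Il17rd), against 8.14% of 15218 genes. The control interval lay wholly above that with FGF9 for Dusp5, Dusp6, Spred1, Spred2 and Il17rd. It did so for Dusp4 and Spred3 as well, but these had under 20 UMIs over both control states. How many of all measured genes show such a gap between the libraries was not counted, so no excess among the inhibitors is read from it. For Spred2 the margin was narrow. Spred3 rests on 3 UMIs in the Gfra1+Ret+ control cells. Dusp4 was at 4.60 CPM in Gfra1+Ret+ control cells, but its 6 UMIs came from 3 cells, and with a gate of 2 UMIs in unthinned cells it was at 0.591 CPM.

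Across treatments, the ratio of Dusp6 was smaller in Gfra1+Ret+ than in unmarked cells. It had a log2 ratio of 1.40 (0.89 to 1.95) in these cells, 2.97 (2.76 to 3.18) in unmarked cells, 3.47 (3.03 to 3.92) in Neurog3+ cells and 4.89 (3.49 to 6.80) in Stra8+ cells. For Dusp5 the level in Gfra1+Ret+ cells was 39.9 CPM in control and 37.9 CPM (33.5 to 42.8) with FGF9, a ratio of -0.07 (-0.51 to 0.38). Of the 10 genes 2 reached a ratio of 1 in Gfra1+Ret+ cells, Dusp6 and Spry4, and 8 did in unmarked cells. Of genes with at least 20 UMIs over both libraries in the state, 4.22% and 4.79% did. In Gfra1+Ret+ cells 8 of the 10 inhibitors had that many UMIs. Spry4, like Spred3, was scarce in every control state, with 2 UMIs in Gfra1+Ret+ cells and 0 in Neurog3+ cells, where up to 0.310 CPM is allowed. With FGF9 it was at 10.7 to 15.2 CPM in all of them. Gfra1 and Ret were themselves higher with FGF9, so that the gate took 86 control and 501 FGF9-treated cells, and these need not be the same kind of cell. Fibroblast markers summed to 157 CPM in the Gfra1+Ret+ control cells and to 136 CPM in all control germ cells.

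**Figure D5:**
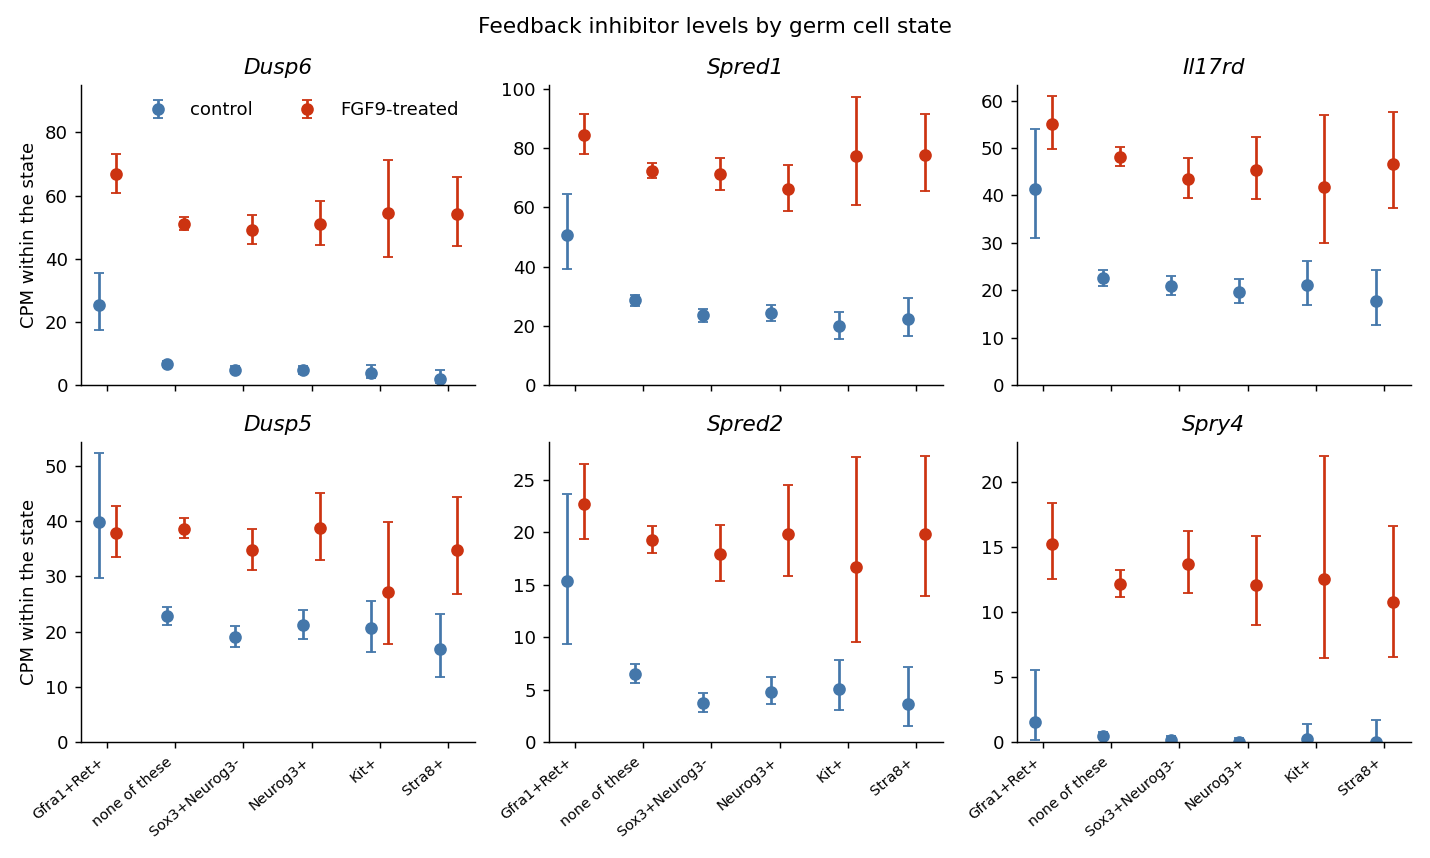
Level (CPM within the state) of 6 feedback inhibitors in germ cell states of the control (blue) and FGF9-treated (red) library, with exact Poisson 95% counting intervals and axes that start at 0. In control the Gfra1+Ret+ cells stand highest for all 6 (Dusp6 at 25.3 CPM against 6.54 CPM in unmarked cells). For Spry4 that control point rests on 2 UMIs (1.53 CPM, 0.19 to 5.54). With FGF9 all states lie between 49.1 and 66.7 CPM for Dusp6.

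Cells that also showed Etv4 or Etv5, ETS factors under ERK control, held more of some inhibitors. In the control library 72 such cells had Dusp6 at 23.2 CPM against 5.44 CPM in the others, a log2 difference of 2.09 (1.46 to 2.67). The control interval was also above 0 for Spred2 at 1.33 (0.48 to 2.07) and Spred1 at 0.59 (0.12 to 1.02), and included 0 for the other inhibitors. The share of all measured genes with an interval above 0 was not counted for this contrast in either library. Whether the inhibitors stand out from other genes here is thus not known. Of the 86 Gfra1+Ret+ control cells 5 (5.81%) showed Etv4 or Etv5, against 1.74% of all thinned control germ cells. Etv4 and Etv5 were at 1.21 and 1.82 CPM in control germ cells, so a cell without a UMI may still hold their RNA. The groups thus cannot be told apart as different cells. The 81 Gfra1+Ret+ control cells with no UMI of Etv4 or Etv5 at this depth held Dusp6 at 24.4 CPM (16.4 to 34.8). With FGF9, 1026 cells showed Etv4 or Etv5 and the difference was 0.33 (0.23 to 0.44) for Dusp6, 0.53 (0.31 to 0.74) for Spry4, 0.14 for Spred1 and 0.14 for Il17rd. Dusp4 with FGF9 was at 1.01 (0.20 to 1.79), from 23 and 39 UMIs. For Dusp5, Spry1, Spry2, Spred2 and Spred3 the interval with FGF9 included 0.

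The ratios of Dusp6 and Spred1 were close in all called phases of the cell cycle. Cells called G1 made up 62.7% of the germ cells in control and 45.9% with FGF9, and 45.1% and 38.2% had a phase score within 0.05 of 0, so phases are loose classes, and no difference in cycling is read from these calls. The log2 ratio of Dusp6 was 3.14 in G1, 3.18 in S and 3.40 in G2/M, and that of Spred1 was 1.47, 1.39 and 1.44. Among FGF9-treated cells Spry4 was at 10.3 CPM (9.11 to 11.6) in G1 and 15.2 CPM (13.5 to 17.0) in G2/M, a log2 difference of 0.56 (0.32 to 0.81). Spred1 also stood higher in G2/M, by 0.22 (0.12 to 0.32), and Dusp6 lower, at -0.13 (-0.25 to -0.01). Spred3 was at -0.72 (-1.36 to -0.12), from 33 and 76 UMIs.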

How the data were processed

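Germ cells of 2 libraries (10x Chromium 3' v3.1 with an anti-KIT tag, not used here) were analysed. The authors made the deposited UMI counts with Cell Ranger (3.1.0 per the file headers) against mm10; the labels name Seurat 3.1 for later steps. The deposited counts precede the authors' cell filter. Positions came from GENCODE vM21, where 32158 of 32285 gene identifiers were found.

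Counts were summed over germ cells and divided by their total (CPM). Intervals are exact Poisson for CPM, exact binomial (Clopper-Pearson) for shares and exact conditional binomial for log2 ratios. Barcodes with many UMIs were kept, so doublets may remain; 1 alternative left out those over 2.5 times the median. Ratio and thinning scripts were tested on simulated data. Phases came from Seurat 5.3.0 under R 4.3.3 (43 S and 54 G2/M genes); other steps used Python 3.11.15, numpy 2.4.6, scipy 1.17.1 and pandas 2.3.3.

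The genes, lists and motifs were chosen with earlier results of these data known. All 10 inhibitors are named; of each pathway list, up to 4 genes with at least 100 UMIs and the largest ratios are named, and for genes of like pattern r of at least 0.2 was required. Genes with under 20 UMIs over both libraries were not counted as measured. Alternatives covered the cell filter, feeder limit, doublets, scaling, weighting of cells, phase, depth and the state gate.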

Additional observations from a re-analysis of the deposited data

Results flagged for a closer look

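Dusp5 had log2 ratios of opposite sign in the cell classes of the same cultures, 0.80 (0.71 to 0.90) in germ cells and -1.82 (-2.86 to -0.81) in feeder cells. The difference was not tested, as there was 1 library per treatment. Of the 21 Dusp5 UMIs in control feeder cells, 15 came from 1 cell, and with the top cell of each library left out the feeder ratio was -1.04 (-2.75 to 0.77).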

How the results depend on the processing

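The count of 8 inhibitors with a log2 ratio of at least 1 was 8 under every change of the cell filter, the feeder limit, the scaling, the weighting of cells, the phase and the depth that was tried, and 10 with a threshold of 0.5 or with the rule on the counting interval. The median log2 ratio lay between 1.28 (cells thinned to 5000 UMIs) and 1.70 (G1 cells alone), and was 1.33 with at most 10% mitochondrial UMIs. Of 110 single ratios 0 reversed and 2 moved beyond their counting interval, both of Dusp5 (0.71 with at most 10% mitochondrial UMIs and 0.91 in thinned cells). The rare genes ranged most, Dusp4 from 1.05 (thinned cells) to 2.52 (G1 cells) and Spred3 from 2.84 (thinned cells) to 3.86 (G1 cells). The order of the genes by level was unchanged with cells weighted equally. Shares of cells moved with depth in 55 of 60 comparisons. With states gated on 2 UMIs in unthinned cells, 7 of 76 levels moved, and Dusp6 in Gfra1+Ret+ control cells was 27.2 CPM from 81 cells, against 25.3 CPM. No paired analysis was possible because each treatment had 1 library. For the same reason no replicate could be left out. Dusp4, Spred3 and control Spry4 rest on few molecules, so their differences between states are imprecise at this depth. The feeder ratio and level without the top cells and the Gfra1+Ret+ level without Etv4 or Etv5 cells were added after the data were seen.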

Other observations

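Barcodes outside the cell filter (1124 in control and 1359 in FGF9-treated, medians of 2194.5 and 2117 UMIs) carried the feedback inhibitors too, at a summed 57.4 CPM (49.3 to 66.5) in control and 194 CPM (181 to 209) with FGF9. Their median mitochondrial shares were 77.0% and 60.2% of UMIs. In these barcodes Dusp6 had 5 UMIs in control and 99 with FGF9, a log2 ratio of 4.04 (2.77 to 5.69). Spry4 had 1 and 44 UMIs, a log2 ratio of 5.19 (2.64 to 10.5). The levels were thus 16.4-fold and 36.5-fold higher with FGF9, against 9.08-fold and 40.2-fold in germ cells. With so few control UMIs the folds outside the filter are imprecise. CPM also divides by all UMIs, mitochondrial ones included, and their median share here was larger in control. The levels and folds outside the filter are thus not like for like with those in germ cells.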
